A study of Mus musculus with 8 samples.

Results

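The 9 genes described here mark macrophages and monocytes: Csf1r, Adgre1, C1qa, C1qb, C1qc, Apoe, Ccr2, Ly6c2 and Mrc1. They were read as an index of mononuclear phagocyte transcripts in neutrophils purified from inflamed air pouches of mice. A gene's probe sets were taken where the platform annotation gave that gene as their single symbol. This gave 9 probe sets, 1 for each gene, of 34472 on the array, and all 9 passed the filter on dim probe sets described with the first test. The rule used no measured value, but the 9 genes were chosen with earlier results of these data known.

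The study injected lipopolysaccharide (LPS, a bacterial cell wall component that recruits neutrophils) into air pouches and collected the leukocytes that had entered. Every array held RNA from pooled neutrophils of 5 mice after negative selection, and the cell suspensions were 98% positive for the neutrophil surface protein Ly6G by flow cytometry, per the series' design text. The conditional Arf6 knockout (cKO, flox+/+Cre+/+, with the floxed allele and Cre both homozygous) was measured on 3 arrays. The Cre control (flox-/-Cre+/+, Cre without the floxed allele) had 2 arrays, and the flox control (flox+/+Cre-/-, the floxed allele without Cre) had 3. All 3 groups came from LPS-injected pouches, so no group shows these genes without LPS. Neither the promoter driving Cre nor the age of the mice is given in the sources used. Since the flow gate counted Ly6G-positive cells, the remaining cells of each pool are not identified.

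Mononuclear phagocytes share a set of genes that neutrophils use little. Csf1r is the receptor for macrophage colony-stimulating factor and interleukin 34, on which most tissue macrophages depend. Adgre1 encodes F4/80, the classic surface marker of mouse macrophages, and Mrc1 the mannose receptor CD206, an endocytic lectin. C1qa, C1qb and C1qc encode the chains of complement C1q, which macrophages make locally, and Apoe encodes a lipid carrier that macrophages secrete. Ccr2 is the receptor that draws inflammatory monocytes out of marrow and blood, and Ly6c2 encodes the Ly6C protein that is high on those monocytes. Some of the markers are not exclusive: mouse neutrophils carry Ly6C at a lower level, and Csf1r transcript is known in granulocytes.

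Facts of the whole series bear on these values as follows. Arf6 averaged 6.25 ± 0.22 in cKO pools (SD, n = 3), 7.82 ± 0.05 in Cre control pools (SD, n = 2) and 8.02 ± 0.30 in flox control pools (SD, n = 3), on the log2 intensity scale, so the levels followed the genotype labels. A second Arf6 probe set differed by -0.15 (SE 0.15, limma adjusted p = 0.816). The source field of the labels names other genotypes than the titles do, and the genotype field was used here. S100a9, an abundant neutrophil calcium-binding protein, read between 13.15 and 13.47 over the arrays, and 30 of the 31 neutrophil genes with a probe set of their own were bright enough to be tested. Sex-linked transcripts set 2 pools apart, with the Y-linked gene Eif2s3y at 4.08 in cKO replicate 1 against at least 8.66 elsewhere, and Xist at 5.46 in flox control replicate 1 against at least 7.84 elsewhere.

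Levels are log2 intensities after Robust Multiarray Analysis (RMA) normalization by the authors, where a difference of 1 is a doubling. Different probe sets bind with different strength, so levels were compared between arrays and never between genes. RNA of a pool was measured as a whole, so fewer cells of a type and less RNA per cell cannot be told apart.

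Csf1r was the steadiest of the 9. It read 10.32, 10.48 and 10.30 in cKO pools, 10.30 and 10.33 in Cre control pools and 10.33, 10.57 and 10.33 in flox control pools. The groups overlapped, and 0.27 separated the lowest array from the highest. Its standard deviation over the 8 arrays was 0.10, and 8.16% of the 14002 tested probe sets varied less. Adgre1 read 10.18, 9.96 and 9.91 in cKO pools, 10.33 and 10.66 in Cre control pools and 9.93, 10.38 and 10.53 in flox control pools. The cKO pools lay below both Cre control pools and below 2 of the flox control pools, while flox control replicate 1 lay among them.

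**Figure D1:**
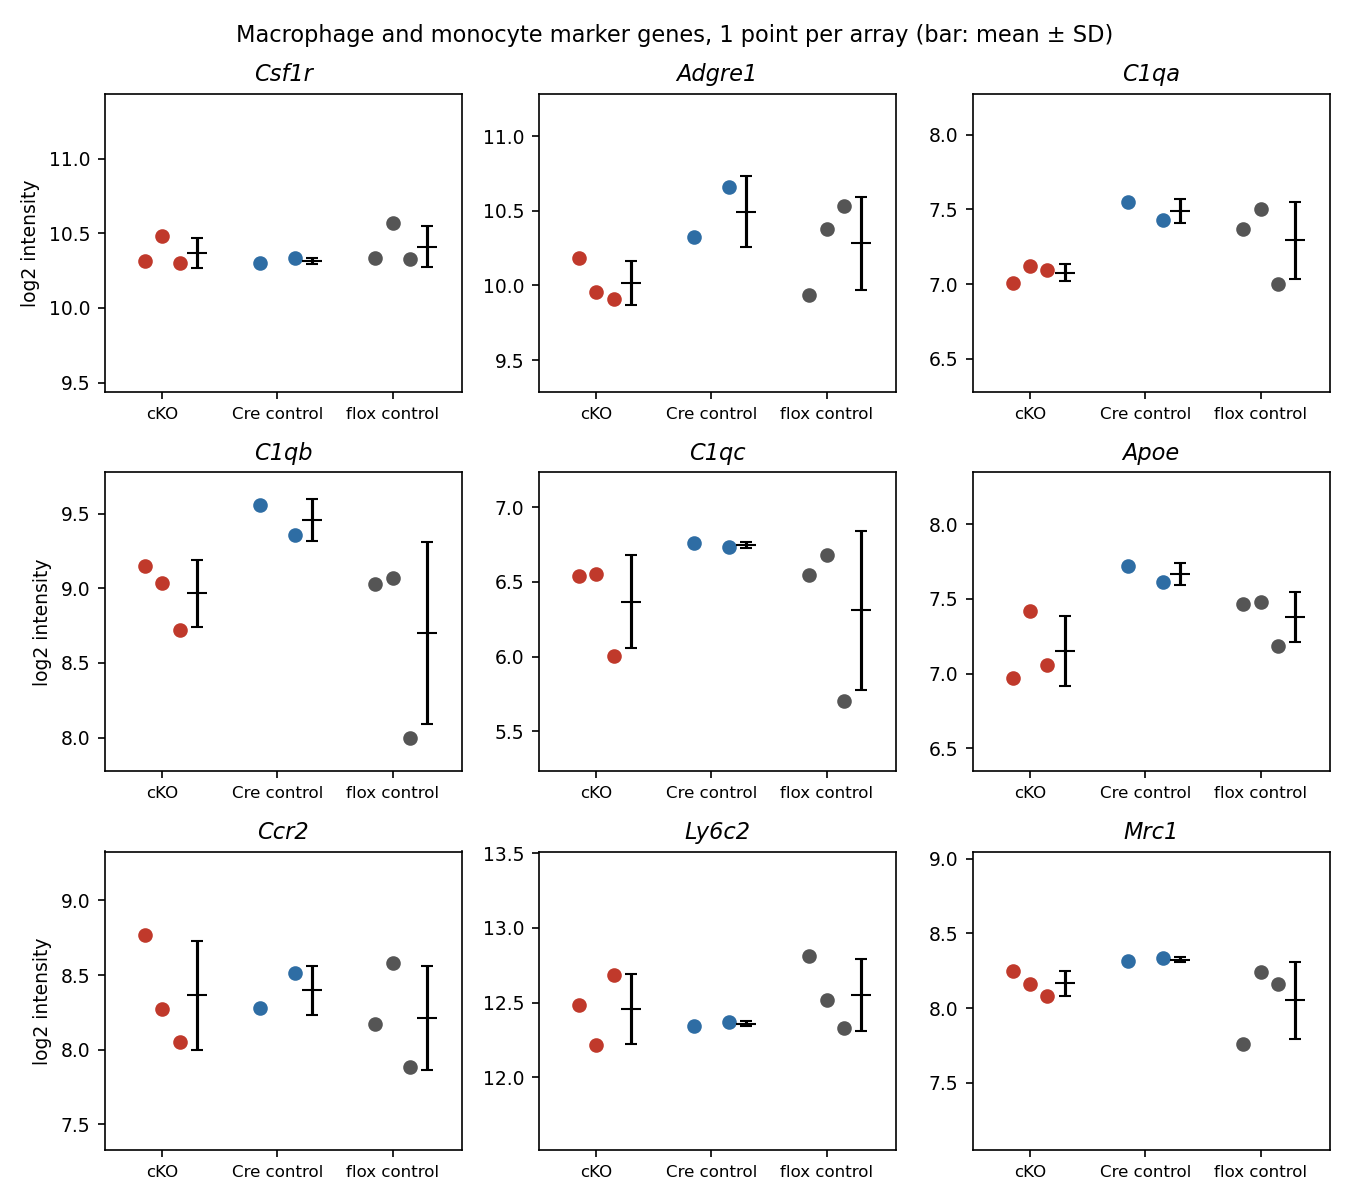
Log2 intensity of each of the 9 marker genes in each array (1 point per array), with cKO at left, Cre control in the middle and flox control at right; the bar beside each group is the mean ± SD, and every panel spans 2 log2 units. C1qb and C1qc spread most, through a low reading in flox control replicate 3, and Csf1r spreads least.

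The complement C1q genes varied more. C1qa read 7.01, 7.12 and 7.10 in cKO pools, 7.55 and 7.43 in Cre control pools and 7.37, 7.51 and 7.00 in flox control pools. The cKO pools lay close together and below every control pool but flox control replicate 3. C1qb read 9.15, 9.04 and 8.72 in cKO pools, 9.56 and 9.36 in Cre control pools and 9.03, 9.07 and 7.99 in flox control pools. C1qc read 6.54, 6.55 and 6.01 in cKO pools, 6.76 and 6.73 in Cre control pools and 6.54, 6.68 and 5.70 in flox control pools. For C1qa, C1qb and C1qc alike flox control replicate 3 was the lowest array and Cre control replicate 1 the highest. The highest array exceeded the lowest 2.95-fold for C1qb and 2.09-fold for C1qc, and 95.2% and 90.7% of tested probe sets varied less than these genes. The lowest C1qc reading, 5.70, lay not far above 5.45, the median of all values used to filter dim probe sets.

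C1qb, C1qc and C1qa lie next to each other on chromosome 4, in that order. C1qb and C1qc varied together across the arrays (Pearson r = 0.946, exact permutation p = 0.00057, and 0.0205 adjusted over the 36 pairs of the 9 genes, n = 8). Spearman's rho for them was 0.857 (exact permutation p = 0.0107, and 0.0771 adjusted over the 36 pairs, n = 8). The permutations of every pair exchanged all 8 arrays regardless of group, so their p-values also reflect differences between groups. Without flox control replicate 3 and Cre control replicate 1, the arrays farthest from the median of C1qb, r was 0.896, and with the group means removed it was 0.966. By Pearson no other pair passed after adjustment, and by Spearman none of the 36 did. The next by Pearson was C1qa with Apoe (r = 0.882, exact permutation p = 0.00404, and 0.0728 adjusted, rho = 0.905, exact permutation p = 0.00456, and 0.0652 adjusted, n = 8), with r = 0.861 without the 2 arrays farthest from the median of C1qa and 0.702 with the group means removed. By Spearman the highest was C1qa with C1qc (rho = 0.929, exact permutation p = 0.00223, and 0.0652 adjusted, n = 8), with Pearson r = 0.72. C1qa with Apoe, and C1qb with Mrc1 and C1qc with Apoe (rho = 0.881 each), also exceeded C1qb with C1qc by Spearman. Since C1qb and C1qc were the pair that passed by Pearson, the stretches ahead of these 2 genes are shown, from RefSeq promoter windows of mouse build GRCm38.p6. Each is 228 bases, read 5′ to 3′ on the minus strand. The C1qb stretch ends 22 bases before the annotated gene and the C1qc stretch directly before it. Capitals mark the PU.1 core GAGGAA or its reverse complement, PU.1 being a transcription factor of myeloid cells.
C1qb upstream, chr4:136886223-136886450, minus strand: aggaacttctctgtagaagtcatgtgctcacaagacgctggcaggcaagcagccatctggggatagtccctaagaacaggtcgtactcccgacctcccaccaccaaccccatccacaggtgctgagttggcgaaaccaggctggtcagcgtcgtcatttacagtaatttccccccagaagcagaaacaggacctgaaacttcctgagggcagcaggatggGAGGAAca
C1qc upstream, chr4:136892937-136893164, minus strand: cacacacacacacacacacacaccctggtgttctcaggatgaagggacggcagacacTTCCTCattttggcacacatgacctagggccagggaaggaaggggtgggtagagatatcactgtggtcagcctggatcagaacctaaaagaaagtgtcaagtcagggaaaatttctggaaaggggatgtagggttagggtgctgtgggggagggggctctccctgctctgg
Each window held 1 match to GAGGAA, searched on both strands, on the plus strand of the printed sequence for C1qb and on its reverse complement for C1qc. Of 32851 RefSeq promoter windows of this length 21.2% held at least 1 match. Neither window held TGANTCA, the AP-1 motif, on either strand, which 6.3% of windows did. These are descriptions of letters and not of binding.

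**Figure D2:**
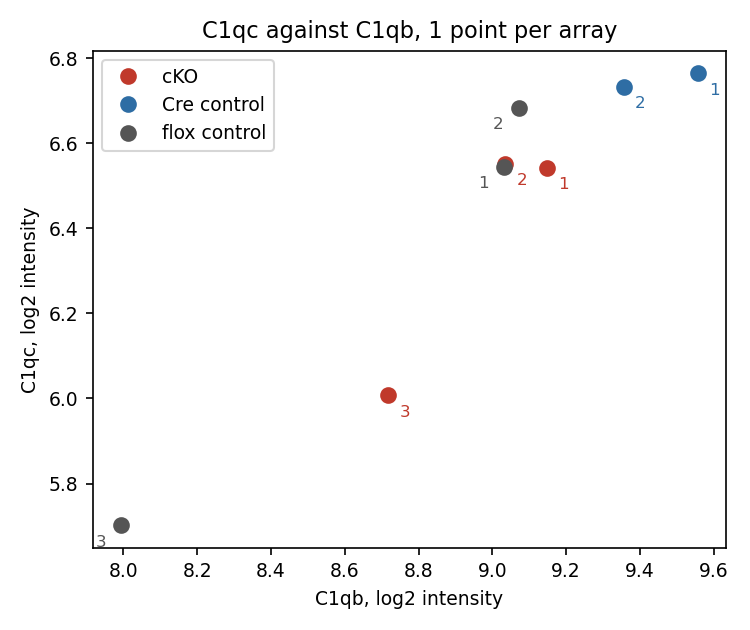
C1qc against C1qb in the 8 arrays, both as log2 intensity, coloured by group and numbered by replicate. Flox control replicate 3 (7.99 and 5.70) and cKO replicate 3 (8.72 and 6.01) lie at the low end and the 2 Cre control pools at the high end.

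Apoe read 6.97, 7.42 and 7.06 in cKO pools, 7.72 and 7.62 in Cre control pools and 7.47, 7.48 and 7.19 in flox control pools. The Cre control pools were the highest arrays, and the cKO pools overlapped the flox control pools through flox control replicate 3. Ccr2, the monocyte chemokine receptor, read 8.77, 8.27 and 8.05 in cKO pools, 8.28 and 8.52 in Cre control pools and 8.17, 8.58 and 7.89 in flox control pools. Its highest array was cKO replicate 1 and its lowest flox control replicate 3, so every group overlapped every other. Ly6c2 read 12.48, 12.21 and 12.68 in cKO pools, 12.35 and 12.37 in Cre control pools and 12.81, 12.52 and 12.33 in flox control pools. Its order of arrays was unlike that of the C1q genes: flox control replicate 1 was highest and cKO replicate 2 lowest. Ly6c2 has a close relative, Ly6c1, in the same cluster on chromosome 15, so a probe set of one may also read the other. Mrc1 read 8.25, 8.16 and 8.08 in cKO pools, 8.31 and 8.34 in Cre control pools and 7.76, 8.24 and 8.16 in flox control pools. Both Cre control pools lay above the other arrays and flox control replicate 1 stood lowest.

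Seen by array, the mean deviation of the markers from their own 8-array means was farthest from 0 in flox control replicate 3. The median deviation was farthest from 0 in cKO replicate 3 (-0.26, against -0.18 in flox control replicate 3). Flox control replicate 3 held the lowest reading of 4 of the 9 genes (C1qa, C1qb, C1qc and Ccr2), and 8 of the 9 lay below their own 8-array mean there. C1qb (-0.99) and C1qc (-0.74) deviated most in it, Csf1r (-0.04) and Mrc1 (-0.01) little, and Adgre1 lay above its mean (0.29). In cKO replicate 3 also 8 of 9 lay below their mean, the exception being Ly6c2. In flox control replicate 2 all 9 lay above their mean. The highest readings of 6 genes fell in the Cre control, those of C1qa, C1qb, C1qc and Apoe in replicate 1 and those of Adgre1 and Mrc1 in replicate 2. The mean deviation of the 9 genes was 0.01, -0.04 and -0.19 in cKO pools, 0.17 and 0.19 in Cre control pools and -0.02, 0.16 and -0.28 in flox control pools. The spread within the flox control thus covered nearly the whole range of the 8 arrays.

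**Figure D3:**
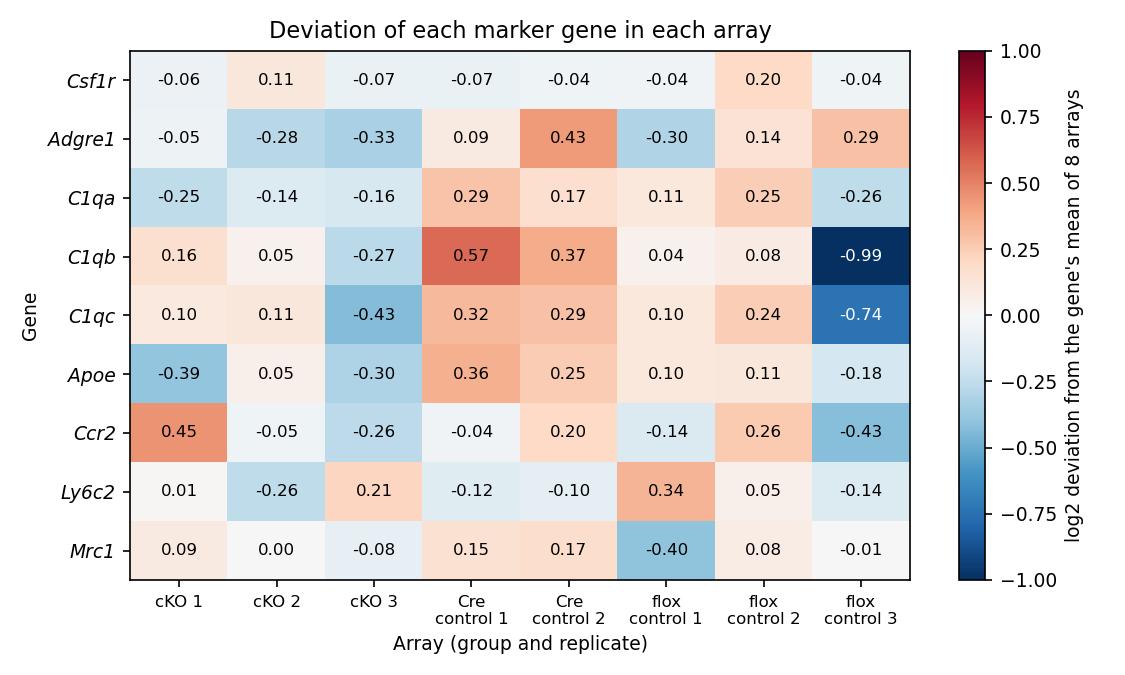
Deviation of each marker gene (rows) in each array (columns) from the gene's own mean of 8 arrays, in log2 units, with red above and blue below that mean. The largest deviations are those of C1qb (-0.99) and C1qc (-0.74) in flox control replicate 3.

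The first comparison asked how the cKO differed from the mean of both control groups. Probe sets with 1 gene symbol that exceeded 5.45, the median of all values, in at least 2 arrays were tested with limma, a moderated linear model. The Benjamini-Hochberg adjustment ran over these 14002 probe sets, with a threshold of 0.05. None of the 9 genes passed, where 0.00714% of the tested probe sets were called, that is Arf6 alone, at a log2 difference of -1.67 (SE 0.15, limma adjusted p = 0.0122). Leaving out flox control replicate 2 ended that call (limma adjusted p = 0.0773), as did leaving out either Cre control array (limma adjusted p = 0.154 without replicate 1 and 0.182 without replicate 2). Before adjustment 3 of the 9 passed 0.05, Apoe, Adgre1 and C1qa, each lower in the cKO. Of all tested probe sets 9.52% did so in either direction and 4.26% lower in the cKO. The difference was below 0 for 6 of the 9, and for 46.6% of all tested probe sets. Apoe differed by -0.37 (SE 0.13, limma adjusted p = 0.424), Adgre1 by -0.37 (SE 0.15, limma adjusted p = 0.492) and C1qa by -0.31 (SE 0.13, limma adjusted p = 0.478). On the linear scale these are 77.2%, 77.4% and 80.4% of the control signal. The other 6 lay between -0.16 and 0.06. For Csf1r the difference was 0.00 (SE 0.11), with a 95% interval of 0.851-fold to 1.18-fold, and for Ly6c2 it was also 0.00 (SE 0.14), with an interval of 0.803-fold to 1.25-fold. The median over the 9 was -0.11, beside 0.01 over all tested probe sets. In none of the 9 did all cKO pools lie beyond all control pools, where 2.25% of tested probe sets lay wholly below and 2.11% wholly above. Without flox control replicate 3 this held for C1qa and Apoe, lower in the cKO, where 3.46% of tested probe sets did. It held for Adgre1 alone without flox control replicate 1 (3.49% of probe sets) and for Apoe alone without cKO replicate 2 (3.89%). Without both pools set apart by sex-linked transcripts it also held for Adgre1 alone (5.85%), whose difference was then -0.54 (limma adjusted p = 0.644).

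In the comparison of the cKO with the Cre control the groups separated for most of the markers, though none passed the test. In 6 of the 9 genes, Adgre1, C1qa, C1qb, C1qc, Apoe and Mrc1, all 3 cKO pools lay below both Cre control pools, where 16.0% of tested probe sets did so, and in none did they lie wholly above, where 18.5% did. None passed the test, at 0.0714% of probe sets called, and 3 (Adgre1, C1qa and Apoe) passed 0.05 before adjustment, against 13.5% of probe sets in either direction and 5.96% lower in the cKO. The difference was below 0 for 7 of the 9, and for 48.0% of tested probe sets. Apoe was nearest, with means of 7.15 ± 0.24 in the cKO (SD, n = 3) and 7.67 ± 0.07 in the Cre control (SD, n = 2), a difference of -0.52 (SE 0.16, 95% interval -0.88 to -0.15, limma adjusted p = 0.241). Adgre1 differed by -0.48 (SE 0.19), C1qa by -0.41 (SE 0.16), C1qb by -0.49 (SE 0.29), C1qc by -0.38 (SE 0.28) and Mrc1 by -0.16 (SE 0.16). Ccr2 (-0.03, SE 0.24), Csf1r (0.05, SE 0.13) and Ly6c2 (0.10, SE 0.18) lay close to 0. The median of the 9 was -0.38, beside 0.01 over all tested probe sets. With cKO replicate 1 and flox control replicate 1 left out, the pools with distinct sex-linked transcripts, Ccr2 joined the genes without overlap, making 7 of 9, where 21.8% of tested probe sets lay wholly below. Without cKO replicate 2 Ly6c2 lay wholly above (24.3% of probe sets), and without Cre control replicate 2 Csf1r did (33.4%).

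Against the flox control, which has the same floxed allele, 5 of the 9 differences were below 0, as were those of 47.6% of tested probe sets. None of the 9 passed (0.0429% of tested probe sets called) or passed 0.05 before adjustment in limma (8.26% of tested probe sets), and in none were the groups free of overlap, where 6.31% of tested probe sets lay wholly below and 5.93% wholly above. Adgre1 (-0.26, SE 0.17), Apoe (-0.23, SE 0.15) and C1qa (-0.22, SE 0.14) lay below 0, and C1qb (0.27, SE 0.26), Ccr2 (0.15, SE 0.22) and Mrc1 (0.11, SE 0.14) above it. C1qa and Apoe lay wholly below in the cKO without flox control replicate 3 (14.3% of probe sets), at -0.36 and -0.32. Adgre1 did so without flox control replicate 1 (10.1%), at -0.44, and Csf1r and Apoe without cKO replicate 2 (10.6%), with Apoe at -0.36. Without both pools set apart by sex-linked transcripts Adgre1 did so (14.9%), at -0.52 (limma adjusted p = 0.911), and Apoe was -0.09. The smallest sizes with 1 array left out were -0.14 for Adgre1 without flox control replicate 3, -0.11 for C1qa without flox control replicate 2 and -0.14 for Apoe without cKO replicate 1. The signs of C1qb and C1qc turned on a single pool. Without flox control replicate 3 that of C1qb was -0.08 in place of 0.27, and that of C1qc was -0.25 in place of 0.06. The median of the 9 was -0.04, beside 0.01 over all tested probe sets.

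**Figure D4:**
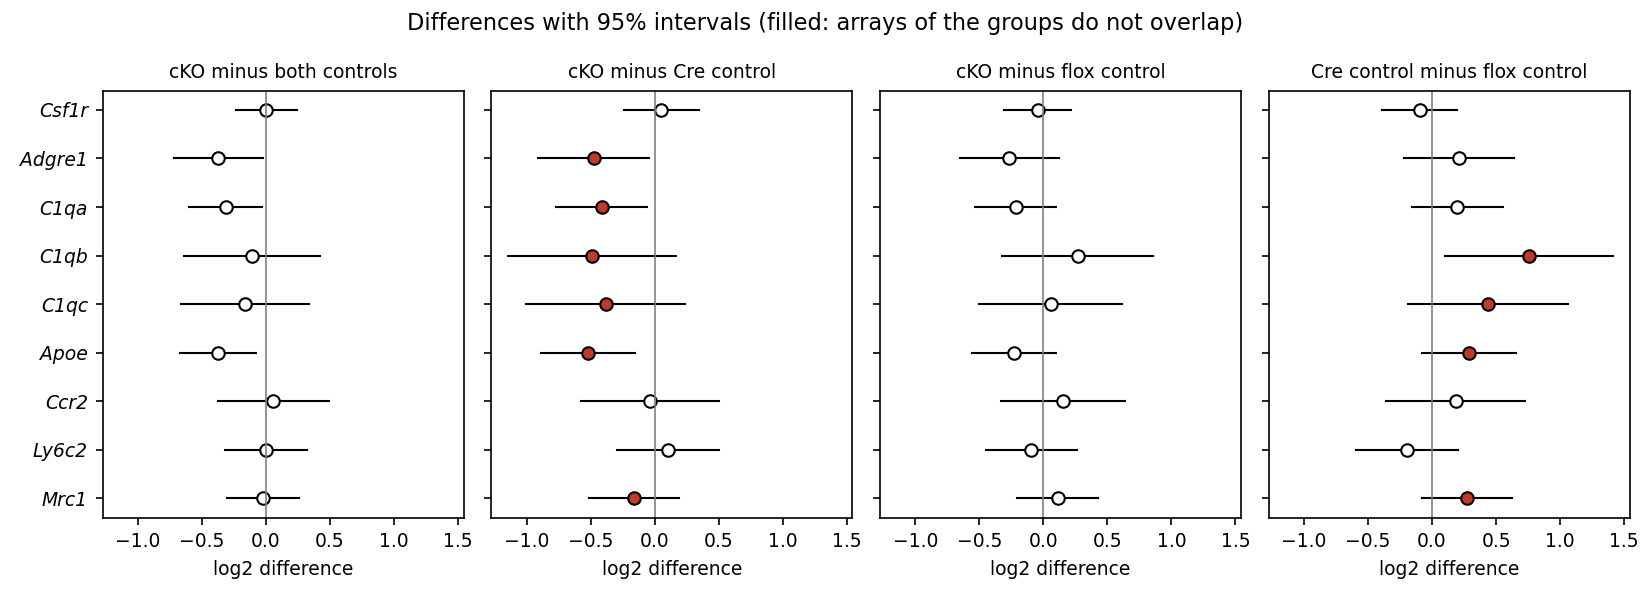
Log2 difference of each marker gene in the 4 comparisons (points, from limma) with 95% intervals (lines); filled points are genes whose arrays do not overlap between the groups. The filled points lie in the comparison of the cKO with the Cre control (6 genes, lower) and of the Cre control with the flox control (4 genes, higher).

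The Cre control and the flox control both carry intact Arf6, and their comparison shows how far the marker levels differ without its loss. C1qb, C1qc, Apoe and Mrc1 were higher in both Cre control pools than in all 3 flox control pools, that is 4 of 9 genes, where 15.3% of tested probe sets lay wholly above and 17.4% wholly below. None passed (0.486% of probe sets called), and C1qb alone passed 0.05 before adjustment in limma, against 14.7% of probe sets in either direction and 6.84% higher in the Cre control. The difference was above 0 for 7 of the 9, and for 49.2% of tested probe sets. C1qb averaged 9.46 ± 0.14 in the Cre control (SD, n = 2) and 8.70 ± 0.61 in the flox control (SD, n = 3), a difference of 0.76 (SE 0.29, 95% interval 0.10 to 1.42, limma adjusted p = 0.272). Without flox control replicate 3 it was 0.41 (limma adjusted p = 0.257). C1qc differed by 0.44 (SE 0.28), Apoe by 0.29 (SE 0.16), Mrc1 by 0.27 (SE 0.16), Adgre1 by 0.21 (SE 0.19), C1qa by 0.20 (SE 0.16) and Ccr2 by 0.18 (SE 0.24). Csf1r (-0.09, SE 0.13) and Ly6c2 (-0.20, SE 0.18) lay below 0. Without flox control replicate 3 C1qc was 0.13, C1qa 0.05 and Adgre1 0.34, and Csf1r and Ly6c2 then lay wholly below (28.1% of probe sets). Adgre1 was 0.04 and Mrc1 0.13 without flox control replicate 1, and without Cre control replicate 2 Adgre1 was 0.05. C1qa and Ccr2 joined the genes wholly above without flox control replicate 2, making 6 of 9 (20.0% of probe sets). The median of the 9 was 0.21, beside 0.00 over all tested probe sets. This comparison shares the Cre control pools with that of the cKO against the Cre control, so the high Cre control readings enter both.

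Further genes of macrophages behaved unevenly. Of 28 listed, 27 had a probe set of their own and 22 were tested. Cd163, a haemoglobin scavenger receptor, Cd5l, Hpgd, Pparg and Vsig4, each known from resident tissue macrophages, were too dim to be tested, with readings of at most 5.58. None of the 22 passed in any of the 4 comparisons. Against both controls 11 were higher and 11 lower in the cKO (median -0.01), where 46.6% of all tested probe sets were lower. Of the 22 genes 2 passed 0.05 before adjustment in limma, near the share of 9.52% over all tested probe sets. The 2 were the iron exporter Slc40a1 (1.03, SE 0.24, limma adjusted p = 0.307) and the haem-degrading enzyme Hmox1 (0.65, SE 0.25, limma adjusted p = 0.454). Slc40a1 read 10.62, 11.37 and 10.30 in cKO pools, 9.39 and 10.04 in Cre control pools and 9.85, 9.92 and 9.49 in flox control pools. All cKO pools thus lay above all control pools, as they did for 2.11% of all tested probe sets. Hmox1 read 10.89, 11.57 and 10.58 in cKO pools and up to 10.65 in control pools, so its groups overlapped. The folate receptor Folr2 read lower in the cKO, by -0.29 (SE 0.14, limma adjusted p = 0.579), and the lysosomal protein Cd68 higher, by 0.27 (SE 0.13, limma adjusted p = 0.558). Against the flox control alone 15 of the 22 were higher in the cKO and 7 lower (median 0.06). Against the Cre control alone 8 were higher and 14 lower (median -0.14). Of all tested probe sets 47.6% and 48.0% were lower in these comparisons. Of the 22, 16 were higher and 6 lower in the Cre control than in the flox control (median 0.24), where 49.2% of all tested probe sets were higher. The apoptotic cell receptors Mertk, at 0.54 (SE 0.12, limma adjusted p = 0.0889), and Axl, at 0.57 (SE 0.18, limma adjusted p = 0.178), were nearest to passing.

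Of 24 further monocyte genes 22 had a probe set of their own, and all 22 were tested. None passed in any comparison. Against both controls 9 were higher and 13 lower in the cKO (median -0.07), with Nr4a1, a transcription factor of patrolling monocytes that LPS also induces, at -0.44 (SE 0.15, limma adjusted p = 0.417). Of all tested probe sets 46.6% were lower in that comparison. Against the Cre control 16 of 22 were lower (median -0.15), where 48.0% of all tested probe sets were. Among the 16 were the membrane proteins Ms4a4c (-0.58, SE 0.22) and Ms4a6c (-0.43, SE 0.19), the lineage factor Irf8 (-0.52, SE 0.21) and the chitinase-like lectin Chil3 (-0.95, SE 0.39). Chil3 read 8.52 in cKO replicate 2, beside 9.97 and 9.83 in the other cKO pools. The Cre control exceeded the flox control in 14 of 22 (median 0.12) and in 49.2% of all tested probe sets, with Irf8 at 0.88 (SE 0.21, limma adjusted p = 0.106) and Ms4a6c at 0.69 (SE 0.19, limma adjusted p = 0.127).

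The molecular partners of the markers gave no call either, by limma, in any of the 4 comparisons. Among 11 tested genes of Csf1r signalling, the ligand Csf1 was 0.28 higher in the cKO than in both controls (SE 0.11, limma adjusted p = 0.478), and Pik3cd, a kinase subunit of leukocytes, read -0.52 (SE 0.19, limma adjusted p = 0.43). The list's median was 0.06, and 2 of the 11 had an unadjusted p under 0.05. Over all tested probe sets the share with such a p was 9.52% in this comparison, beside this count and those of the lists that follow. Among 16 tested genes of the C1 complex, C1q receptors and neighbouring complement steps, Cd93, once described as a C1q receptor, read 1.21 (SE 0.38, limma adjusted p = 0.384), and complement factor B, Cfb, read -0.66 (SE 0.28, limma adjusted p = 0.49), with a list median of 0.04 and 2 of 16 at an unadjusted p under 0.05. Among 13 tested genes of the Apoe locus and of lipid handling, the lysosomal lipase Lipa read 0.65 (SE 0.16, limma adjusted p = 0.334), Apoc2, of the same gene cluster on chromosome 7, -0.41 (SE 0.16, limma adjusted p = 0.454) and the receptor Lrp8 0.39 (SE 0.16, limma adjusted p = 0.475), with a median of 0.06 and 3 of 13 at an unadjusted p under 0.05. In cKO replicate 2 Cd93 (10.65), Lipa (11.33) and Lrp8 (7.96) had their highest reading, and Pik3cd (9.30) and Cfb (7.37) their lowest. The other cKO pools read 9.07 and 8.79 for Cd93, and a control pool reached 8.90, so the groups overlapped. For Csf1 and Lipa all cKO pools lay above all control pools, as for 2.11% of all tested probe sets.

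The Ccr2 ligands followed single pools rather than groups. Ccl2 read 9.65, 8.43 and 9.59 in cKO pools, 9.51 and 9.16 in Cre control pools and 9.44, 9.47 and 8.37 in flox control pools. Ccl7 read 8.85, 7.38 and 9.67 in cKO pools, 9.56 and 9.11 in Cre control pools and 9.76, 8.80 and 8.02 in flox control pools. Both ligands were low in cKO replicate 2 and flox control replicate 3 and overlapped between all groups. None of the 4 tested genes of this list had an unadjusted p under 0.05 by limma in any comparison. Of 8 tested Ly6 family genes 7 lay below 0 against both controls (median -0.13), where 46.6% of all tested probe sets did. None of the 8 had an unadjusted p under 0.05, where 9.52% of all tested probe sets did. Ly6i, from the same cluster on chromosome 15, read 9.80, 9.15 and 10.51 in cKO pools, 10.71 and 10.28 in Cre control pools and 10.97, 10.20 and 9.70 in flox control pools. Of 8 tested mannose receptor relatives and genes of the interleukin 4 response, 3 were higher and 5 lower against both controls (median -0.02). None of them had an unadjusted p under 0.05 in that comparison. Retnla, a secreted protein of interleukin 4 activated macrophages, averaged 9.27 in the Cre control and 7.27 in the flox control, a difference of 2.00 (SE 0.55, limma adjusted p = 0.13).

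Markers of other leukocytes moved between the arrays beside the 9 genes. Summed as the mean deviation of 15 tested T and NK cell markers, their level was -0.10 to 0.13 in cKO pools, 0.30 to 0.41 in Cre control pools and -0.40 to -0.08 in flox control pools. For 15 dendritic cell and class II genes it was 0.00 to 0.18 in cKO pools, 0.07 to 0.16 in Cre control pools and -0.34 to -0.02 in flox control pools. The 22 further macrophage genes lay between -0.05 and 0.09 in cKO pools, 0.13 and 0.17 in Cre control pools and -0.30 and -0.02 in flox control pools, and the 22 monocyte genes between -0.28 and 0.13 in cKO pools, 0.14 and 0.20 in Cre control pools and -0.20 and 0.01 in flox control pools. The 30 neutrophil genes ran the other way, with -0.05 to 0.07 in cKO pools, -0.19 to -0.15 in Cre control pools and 0.02 to 0.24 in flox control pools. Mean deviations of 6 tested eosinophil, basophil and mast cell genes were 0.36, 0.05 and -0.14 in cKO pools. They were -0.04 and 0.38 in Cre control pools and -0.29, 0.03 and -0.36 in flox control pools. The highest arrays of Ccr2 (cKO replicate 1) and Adgre1 (Cre control replicate 2) were also the highest for this list. Of its 6 genes 5 were higher in the Cre control than in the flox control (median 0.42). Of the T and NK markers 14 of 15 were higher in the Cre control than in the flox control (median 0.67), and of the neutrophil genes 26 of 30 were lower (median -0.12). No gene of these lists, nor of the B cell, granulocyte, fibroblast and erythroid lists, passed by limma in any comparison, with 9 of 15 T and NK markers and 9 of 30 neutrophil genes at an unadjusted p under 0.05 between the controls. Over all tested probe sets 14.7% had such a p in that comparison, and 49.2% were higher in the Cre control. Of the defining T cell markers, Cd4 was too dim to be tested, at most 5.20 in any array, while Cd3e ranged between 5.65 and 7.19. Cd3e averaged 6.82 in the Cre control and 5.97 in the flox control, Cd3g 6.18 and 5.28, Cd8a 5.59 and 5.40, and Cd8b1 6.31 and 6.06. Cd3d went the other way, at 5.64 in the Cre control and 6.12 in the flox control. The part of these shifts in the values of the 9 genes was not tested.

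**Figure D5:**
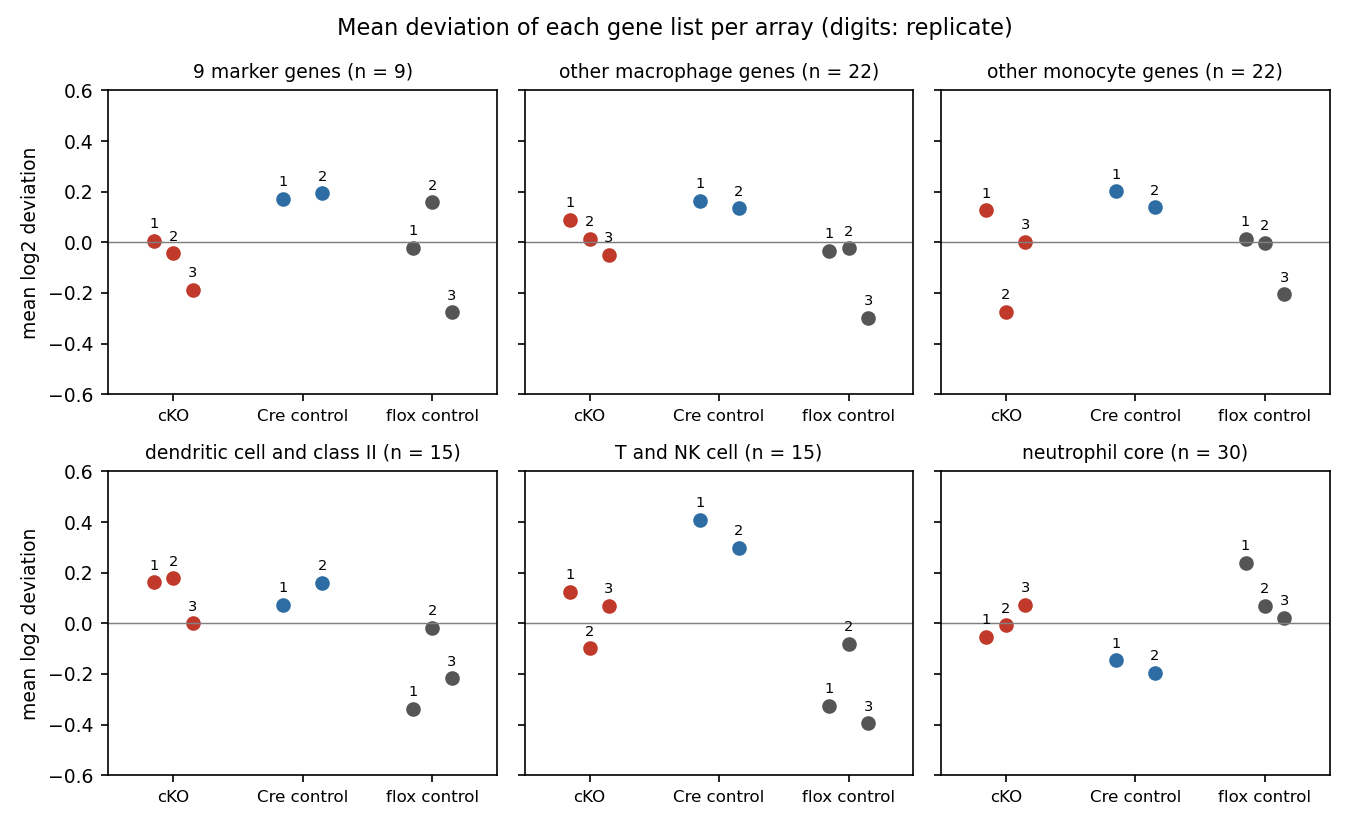
Mean log2 deviation per array of the 9 marker genes and of 5 other gene lists (1 point per array, numbered by replicate, with cKO at left, Cre control in the middle and flox control at right). The Cre control pools lie above 0 in the macrophage, monocyte, dendritic and T and NK lists and below 0 in the neutrophil list.

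The genes whose array pattern was most like that of each marker were found by the root mean square difference of the centred log2 values over the 8 arrays, among tested probe sets with at least 0.75 of the marker's spread. For C1qb they were Pltp, a phospholipid transfer protein (0.12), Crip1 (0.17) and Ifi30, a lysosomal reductase of antigen processing (0.18). For C1qc they were the ribosomal protein gene Rpl7 (0.13), Crip1 (0.18) and Ms4a7, a membrane protein of macrophages (0.18). Pltp read 8.67, 8.34 and 8.30 in cKO pools, 8.94 and 8.93 in Cre control pools and 8.60, 8.37 and 7.56 in flox control pools, with the same low reading in flox control replicate 3. The nearest gene to Adgre1 was Vti1a (0.07), to C1qa Zfp282 (0.08), to Apoe Cep170b (0.13) and to Ccr2 Gata1 (0.08). Csf1r, Ly6c2 and Mrc1 were nearest to Nptn, Ddx39a and Wdr20, each at 0.04. Such a match is a description of these 8 arrays.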

How the data were processed

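The deposited table holds log2 intensities of Affymetrix Mouse Gene 2.0 ST probe sets, which the authors made with background subtraction and RMA normalization in Expression Console, per the series' design text. The sources used name no software version or genome build. Array medians were 5.41 to 5.48, and no further scaling was applied. Gene symbols came from the platform annotation, updated by gene identifier with RefSeq (GRCm38.p6). Of 34472 probe sets 23521 had 1 symbol, 1814 several and 9137 none.

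Groups were taken from the genotype labels. limma 3.58.1 in R 4.3.3 fitted the 3 groups together (5 residual and 4.69 prior degrees of freedom), two-sided. The control mean weighs both control groups equally. All members were named, list genes were named by smallest p (up to 4 per list and comparison), and the search for nearest genes skipped predicted genes and small RNAs. The members and lists were chosen with earlier results of these data known. The pools are separate groups of mice per the design text, which states 3 per genotype. Another pool of the Cre control is not analysed here. Cd4, Cd3e, Cd3g, Cd3d, Cd8a and Cd8b1 were named after their values were seen. Alternatives were other filters, scalings, variance settings and array weights, the compared groups alone, averaged probe sets, and arrays left out. The sources differ on the RNA isolation and labelling kits. The pipeline was tested on simulated data. Precision is limited by the small number of arrays.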

Additional observations from a re-analysis of the deposited data

How the results depend on the processing

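No member gene passed in any of the alternatives tried (smallest limma adjusted p 0.0805, for Apoe against the Cre control, with array weights). Of 675 member values under alternatives 634 kept their direction, 32 turned with 1 array left out and 9 in other settings, none from a difference beyond 0.268 in size. Many of the 634 could not turn. Other filters, other variance settings, averaged probe sets and the compared groups alone leave a member's difference as it is. So does leaving out an array of a group that is not compared. The 634 is therefore no measure of how stable the directions are. With array weights Csf1r against both controls was -0.060, C1qc against the flox control -0.14, Ccr2 against the Cre control 0.028 and Ccr2 between the controls -0.020. Without cKO replicate 1 and flox control replicate 1, which differ in sex-linked transcripts, Ccr2 was -0.15 against both controls and -0.071 against the flox control, and against the flox control Ly6c2 was 0.022 and Mrc1 -0.077. With equal array medians Ccr2 against the Cre control was 0.0022. With 1 array left out, values against both controls spanned -0.054 to 0.044 for Csf1r, -0.29 to 0.014 for C1qb, -0.31 to 0.017 for C1qc, -0.14 to 0.21 for Ccr2, -0.11 to 0.13 for Ly6c2 and -0.097 to 0.024 for Mrc1. Against the flox control they spanned -0.10 to 0.037 for Csf1r, -0.084 to 0.45 for C1qb, -0.25 to 0.24 for C1qc, -0.051 to 0.33 for Ccr2, -0.21 to 0.034 for Ly6c2 and -0.034 to 0.21 for Mrc1. Against the Cre control they spanned -0.0071 to 0.084 for Csf1r, -0.24 to 0.12 for Ccr2 and -0.010 to 0.22 for Ly6c2. Between the controls no sign turned, and they spanned 0.41 to 0.94 for C1qb, 0.13 to 0.62 for C1qc, 0.053 to 0.30 for C1qa, 0.040 to 0.38 for Adgre1 and 0.022 to 0.37 for Ccr2.
The count of probe sets called against both controls (1 in the report) was 13 with array weights, 0 without the 2 sex-distinct pools, 0 with probe sets of a gene averaged and 0 to 31 with 1 array left out. Against the flox control (6) it was 12 with array weights, 0 with the compared groups alone, 0 without the 2 pools, 0 with averaged probe sets and 0 to 11 with 1 array left out. Against the Cre control (10) it was 5 with no filter, 145 with array weights, 5 with the compared groups alone, 4 without the 2 pools, 4 with averaged probe sets and 0 to 67 with 1 array left out. Between the controls (68) it was 819 with array weights, 131 with the compared groups alone, 24 without the 2 pools and 0 to 235 with 1 array left out. The cause of these shifts was not tested. Where a Cre control array was left out, the lone array was assumed to vary like the other groups. Counts of genes without overlap under left-out arrays were chosen after seeing the data. No paired analysis was possible because the labels give no replicate numbers that groups share.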
